A study of Mus musculus with 24 samples.

Results

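The 9 genes described here are the core of the Hedgehog signalling pathway: the ligands Shh and Ihh, the receptor Ptch1, the ligand-binding antagonist Hhip, the signal transducer Smo, the inhibitor Sufu and the transcription factors Gli1, Gli2 and Gli3. They were chosen by name, and all 9 were found by Ensembl identifier among the 53465 genes of the deposited count table. Their levels were taken from total RNA of 24 BURP tumors, which are mouse bladder tumors kept as subcutaneous allografts. C57BL/6NTac mice had received the bladder carcinogen BBN at 0.1% in the drinking water from 8 weeks of age for up to 36 weeks, and their tumors were passaged in sex-matched C57BL/6NTac hosts with an intact immune system, so every group shares the carcinogen, the strain and the grafting. There were 3 tumors from each of 8 lines. Of the 6 lines of the basal/squamous (Ba/Sq) subtype, male donors gave BURP-12BaSq, BURP-17BaSq and also BURP-18BaSq, and female donors gave BURP-21BaSq, BURP-24BaSq and also BURP-25BaSq. BURP-16SR, assigned by the study to the stroma-rich subtype although its tumors were not all classified alike, and BURP-19NE, assigned to the neuroendocrine-like subtype, both came from male mice. Each line descends from the tumor of a single donor mouse, so the 3 tumors of a line share their origin. Between single lines and over the 8 lines, a p-value thus measures the spread between allografts. Where tumors of several lines form a group, the spread between those lines enters as well, and the tumors are counted as if independent. With 1 line each, what belongs to the stroma-rich or neuroendocrine-like subtype and what belongs to that line cannot be told apart.

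Hedgehog ligands are secreted proteins that bind the receptor Patched on a receiving cell. Unbound Patched keeps Smoothened silent. Once ligand is bound, Smoothened is released, Sufu lets go of the Gli factors and these switch on target genes, among them Gli1, Ptch1 and Hhip themselves, so that the RNA of these 3 genes is widely used as a readout of signalling. In the bladder the textbook arrangement is paracrine: basal urothelial cells make the ligand Shh, and fibroblasts and smooth muscle cells of the stroma respond with Gli1. In bulk tumor RNA, fewer cells of a type and less RNA per cell cannot be told apart.

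The 250 bases before the start of Ihh and of Gli2 are shown because Ihh was the member with the largest change between lines and Gli2 the only one of the 7 members searched whose upstream sequence held the core of the Gli binding motif. Both sequences are from RefSeq for build GRCm38.p6 and both genes lie on the minus strand, Ihh upstream of its start at chr1:74951673-74951922 and Gli2 at chr1:119053620-119053869. They are printed 5′ to 3′ on the strand of the gene, and capitals mark the motif core ACCACCC, which is read here on the opposite strand.
Ihh: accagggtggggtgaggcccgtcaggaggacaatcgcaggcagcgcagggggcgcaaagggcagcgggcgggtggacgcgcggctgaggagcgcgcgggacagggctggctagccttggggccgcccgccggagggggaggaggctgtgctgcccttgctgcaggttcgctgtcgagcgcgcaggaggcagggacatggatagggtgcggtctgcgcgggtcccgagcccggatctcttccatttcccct
Gli2: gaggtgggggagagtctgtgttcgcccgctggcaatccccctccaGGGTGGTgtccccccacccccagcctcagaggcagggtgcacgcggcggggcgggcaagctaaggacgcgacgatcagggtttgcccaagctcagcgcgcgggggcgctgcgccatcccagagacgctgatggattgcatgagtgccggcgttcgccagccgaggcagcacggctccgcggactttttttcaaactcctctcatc
The table of promoters held 7 of the 9 members, and in it windows from 250 bases before to 50 bases after a start were searched on both strands. Shh and Gli1 were missing from it, so their upstream sequences were not searched. The full motif GACCACCCA, which contains that core, was in none of the 7 and in 0.253% of all 32851 promoters of this length. The core ACCACCC was in Gli2 alone among the 7 and in 4.61% of all promoters. A match of letters is a description of the sequence and not a binding site.

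The authors' RSEM estimates of counts were rounded and scaled with edgeR's TMM factors to CPM, a gene's counts relative to the effective total of its library. Total counts per tumor ran from 9295747 to 25370356 with a median of 17693198, and the floor, set at 3 counts in a tumor, was worth 0.106 to 1.34 CPM and covers counting error only. The highest floor belonged to BURP-25BaSq replicate 2, in which ribosomal RNA and the noncoding RNA Gm26917 took 68% of the counts, and the next highest was 0.412 CPM. BURP-25BaSq replicate 3, labelled C102-M1, correlated at a mean r of 0.968 with the BURP-21BaSq tumors and of 0.892 with the other BURP-25BaSq tumors over 21383 genes, and it was kept as labelled. Tumors of a line correlated at r from 0.881 to 0.985 with each other. The summed level of 10 epithelial keratin, adhesion and basal cell genes ran from 7438 to 14480 CPM in the 18 Ba/Sq tumors, from 217.1 to 488.7 CPM in BURP-16SR and from 141.6 to 214.2 CPM in BURP-19NE. Krt17 and Dsg3 were at 0 in all BURP-16SR tumors and Epcam in all BURP-19NE tumors. The summed level of 12 fibroblast genes ran from 274 to 11470 CPM in the Ba/Sq tumors with a median of 1420, from 845.9 to 22840 CPM in BURP-16SR and from 1344 to 2251 CPM in BURP-19NE, with none of the 12 at 0 throughout any line.

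Per length of transcript, the pathway's inner members were far more abundant than its ligands. Medians over the 24 tumors were 18.7 CPM per kb for Smo, 8.12 for Gli3, 4.43 for Sufu and 2.29 for Ptch1. They were 0.971 CPM per kb for Gli2, 0.197 for Gli1, 0.0272 for Ihh, 0.0046 for Hhip and 0 for Shh. Of the 9 members, 7 passed the filter on low counts over the 8 lines, and Shh and Hhip did not. The F test over all 8 lines called 5 of the 7 at an adjusted p under 0.05, namely Ihh, Ptch1, Smo, Gli1 and Sufu, while Gli2 with an adjusted p of 0.0539 and Gli3 with 0.181 did not pass (edgeR's quasi-likelihood test, as for every adjusted p below unless named otherwise). The same test called 76.7% of all 21383 genes, so that 5 of 7 was close to what any gene showed. On the log2 scale, differences between lines made up 88.8% of the variance of Smo, 87.9% of Ihh, 79.5% of Sufu, 79.3% of Gli1, 62.3% of Ptch1, 57.5% of Gli2 and 43.6% of Gli3, beside a median of 69.1% over all genes tested.

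**Figure D1:**
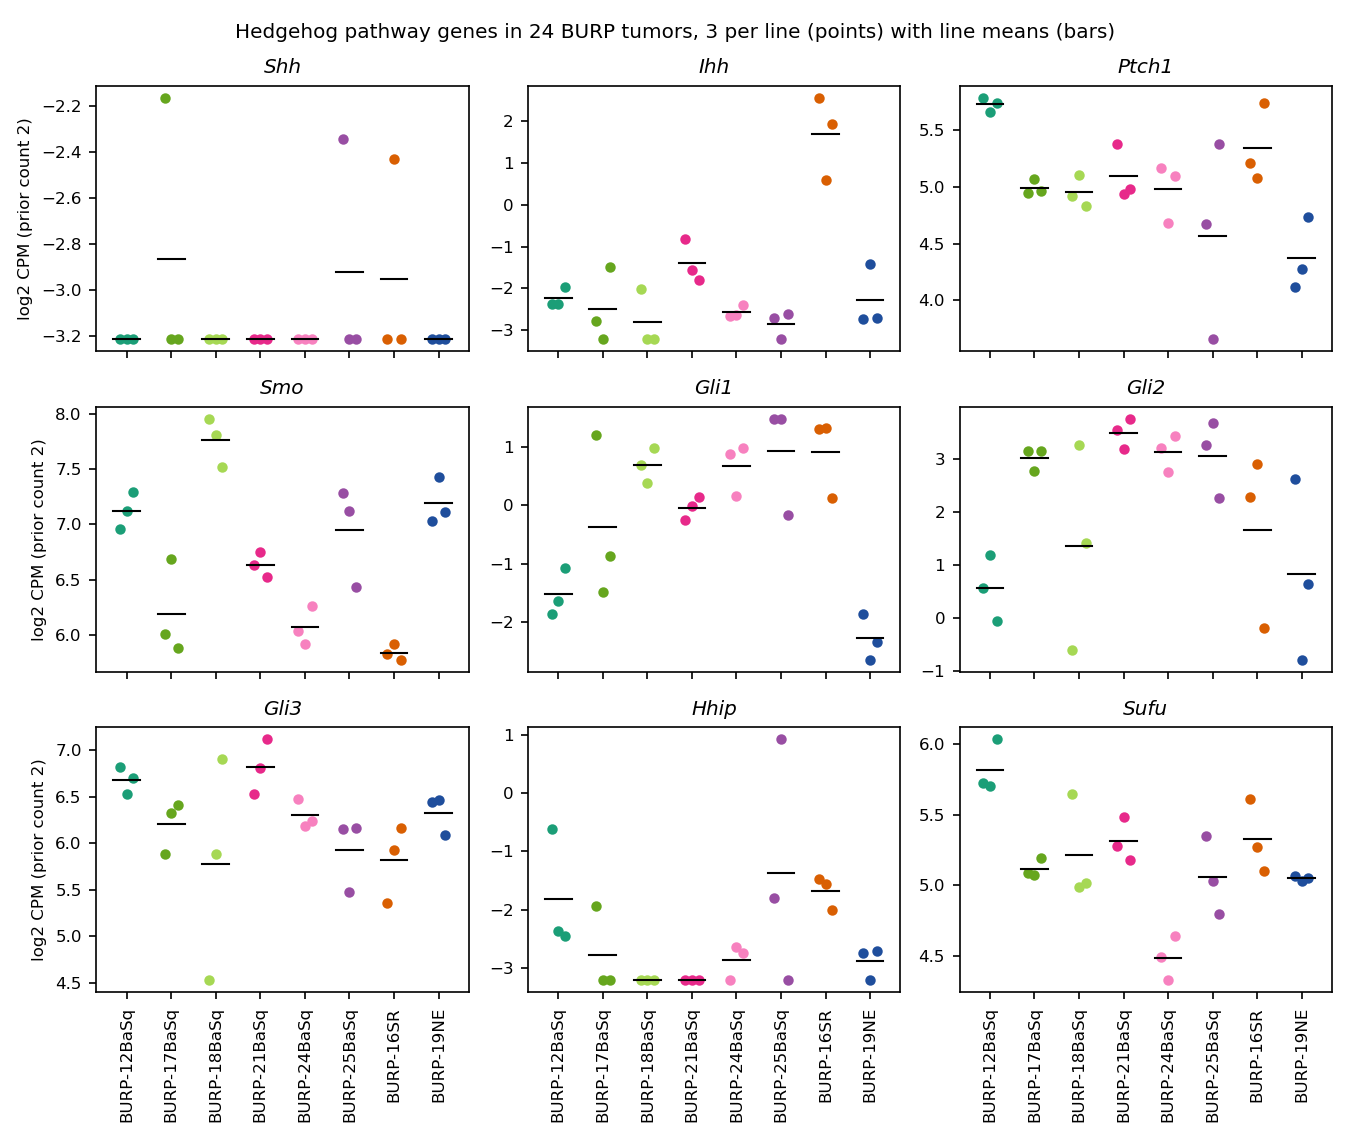
Level of each of the 9 genes in the 24 tumors, as log2 CPM with a prior count of 2 on a vertical axis of its own in each panel. Points are tumors, 3 in each of the 8 lines on the horizontal axis, and bars are line means. Ihh stands apart in BURP-16SR, Gli1 is lowest in BURP-12BaSq and BURP-19NE apart from 1 BURP-17BaSq tumor, and the lowest points of Shh and Hhip are tumors without a count.

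Shh, the ligand made by basal urothelium (chromosome 5, 28456815 to 28467256, minus strand), was nearly absent from every line. It had 6 counts in all, in 3 of the 24 tumors: 3 in BURP-17BaSq replicate 1, 2 in BURP-25BaSq replicate 1 and 1 in BURP-16SR replicate 2. No tumor exceeded the floor of 3 counts, and a difference between lines was not detectable at this depth. The epithelial markers of the Ba/Sq tumors were high beside this, with Krt5, a keratin of basal cells, between 2950 and 6050 CPM.

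Ihh, a second ligand of the family best known from gut epithelium and growing cartilage (chromosome 1, 74945315 to 74951672, minus strand), was found above the floor in BURP-16SR. Its level there was 5.76, 1.39 and 3.71 CPM, from 68, 18 and 53 counts. In the other 21 tumors it was at most 0.459 CPM and never above 6 counts. The highest of these was BURP-21BaSq, with 0.459, 0.232 and 0.177 CPM from 5, 6 and 5 counts. BURP-19NE held 0.0421, 0.264 and 0.0454 CPM, from 1, 5 and 1 counts. No tumor of another line reached the lowest BURP-16SR tumor, and the 7 lines below it overlapped their neighbours in order.

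Ptch1, the receptor and a classical target gene (chromosome 13, 63508328 to 63573598, minus strand), was well counted in every line. Its order by mean was BURP-12BaSq at 52.9 CPM, BURP-16SR at 41.3, BURP-21BaSq at 34.4, BURP-24BaSq and BURP-17BaSq at 31.7, BURP-18BaSq at 30.9, BURP-25BaSq at 26.4 and BURP-19NE at 21. Each line overlapped the next in this order. BURP-12BaSq was the tightest at the top with 54.9, 50.5 and 53.3 CPM, and 1 BURP-16SR tumor lay within that range, the 3 values of that line being 36.9, 33.7 and 53.2 CPM. BURP-19NE had 17.3, 19.2 and 26.5 CPM, below every Ba/Sq tumor except BURP-25BaSq replicate 2 at 12.5 CPM, replicate 1 of the same line at 25.4 CPM and BURP-24BaSq replicate 2 at 25.5 CPM.

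Hhip, a membrane protein that binds and traps the ligands and is itself a target gene (chromosome 8, 79965851 to 80058006, minus strand), was at or near the floor. BURP-12BaSq replicate 1 had 13 counts, or 0.542 CPM, and no other tumor had more than 4. All tumors of BURP-18BaSq and BURP-21BaSq had none. The highest value in CPM, 1.79 in BURP-25BaSq replicate 2, came from 4 counts in the library with the highest floor.

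Smo, the 7-transmembrane protein that carries the signal inward (chromosome 6, 29735503 to 29761365, plus strand), was the most abundant member per length and had the largest share of its variance between lines, while Ihh had the larger F. BURP-18BaSq was highest with 248, 224 and 183 CPM, and no tumor of another line reached its lowest value. BURP-16SR was lowest with 56.7, 60.2 and 54.8 CPM, and its 3 tumors lay closer together than those of any other line. BURP-19NE had 131, 172 and 138 CPM. Between these, BURP-12BaSq averaged 139.9, BURP-25BaSq 127.2, BURP-21BaSq 99.4, BURP-17BaSq 75.4 and BURP-24BaSq 67.6 CPM, each overlapping the next in order, and only BURP-18BaSq at the top and BURP-16SR at the bottom did not overlap their neighbour.

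Sufu, which holds the Gli factors in the cytoplasm (chromosome 19, 46396896 to 46488804, plus strand), was highest and lowest in other lines than Smo was. BURP-12BaSq was highest with 52.6, 51.8 and 65.3 CPM, above every tumor of the other lines. BURP-24BaSq was lowest with 22.5, 20.03 and 24.9 CPM, below every tumor of the other lines. The 6 lines between them overlapped their neighbours, with means from 33.0 CPM in BURP-19NE to 40.5 CPM in BURP-16SR, and the 3 BURP-19NE tumors differed little at 33.3, 32.7 and 33.1 CPM.

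Gli1, an activator whose own transcription is a standard readout of the pathway (chromosome 10, 127329882 to 127341974, minus strand), was low in BURP-19NE with 0.168, 0.0527 and 0.0908 CPM, from 4, 1 and 2 counts. It was also low in BURP-12BaSq with 0.167, 0.212 and 0.37 CPM, from 4, 5 and 10 counts. The highest line means were 2.05 CPM in BURP-25BaSq, with 2.67, 2.69 and 0.787, and 1.92 CPM in BURP-16SR, with 2.37, 2.4 and 0.979. BURP-17BaSq was spread most, with 2.18, 0.252 and 0.444 CPM. In the order of means only the step from BURP-21BaSq at 0.872 CPM down to BURP-12BaSq at 0.25 CPM separated neighbours without overlap. Gli1 overlaps the protein-coding gene Arhgap9 and an antisense gene on the other strand, and since the sources used here do not state whether strand was used in counting, reads of these genes may have been shared. Genes on the same strand, which stranded counting would not separate either, overlap Ptch1 (A930032L01Rik), Smo (the pseudogene Gm13717) and Gli3 (the pseudogene Gm48343).

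Gli2, the main activator downstream of Smo (chromosome 1, 118834132 to 119053619, minus strand), was lowest in BURP-12BaSq with 1.38, 2.17 and 0.851 CPM and highest in BURP-21BaSq with 11.5, 8.97 and 13.3 CPM. The spread within some lines was as wide as that between them: BURP-18BaSq had 0.549, 9.44 and 2.57 CPM and BURP-19NE had 6.06, 0.474 and 1.45 CPM. The summed level of 6 skeletal muscle genes was 535.8, 2.793 and 4.811 CPM in the same BURP-19NE tumors. In BURP-18BaSq the tumor with the most of it, replicate 3 at 32.81 CPM, was not the one with the most Gli2. The part of muscle tissue was not tested. Gli3, which acts mostly as a repressor when no ligand is present (chromosome 13, 15463235 to 15730026, plus strand), was far more abundant, from 22.9 CPM in BURP-18BaSq replicate 1 to 139 CPM in BURP-21BaSq replicate 3. The 3 tumors of BURP-18BaSq alone spanned 22.9, 58.8 and 120 CPM.

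Comparison of BURP-19NE with the 18 Ba/Sq tumors asked how the pathway differed in the neuroendocrine-like line. Gli1 was lower there by the test, and no other member was called. Gli1 entered the test only through the Ba/Sq tumors, with 13 tumors above the level of the filter there and 0 in BURP-19NE, and its BURP-19NE level rests on 7 counts in all. Gli1 averaged 0.104 ± 0.0589 CPM over the BURP-19NE tumors (SD, n = 3) and 1.20 ± 0.818 CPM over those of Ba/Sq lines (SD, n = 18), a log2 fold change of -3.37 ± 0.886 (SE) with an adjusted p of 0.00582. The groups overlapped, because BURP-12BaSq replicate 1 at 0.167 CPM was as low as the highest BURP-19NE tumor. Ptch1, a target gene with far higher counts, had a log2 fold change of -0.70 ± 0.28 with an adjusted p of 0.0589 and was not called. Smo (0.30), Gli2 (-1.37), Gli3 (-0.03) and Sufu (-0.16) had adjusted p-values from 0.195 to 0.956, and Shh, Ihh and Hhip were too low to test. Of all 20995 genes tested in this comparison, 9.33% were called higher and 15% lower, and in 18% the tumors did not overlap, which none of the 6 members showed. The summed fibroblast markers of BURP-19NE, 1344 to 2251 CPM, fell inside the Ba/Sq range, and with the fibroblast score as a covariate the Gli1 change was -3.28 with an adjusted p of 0.00523. The summed level of 8 smooth muscle and pericyte genes was 31.52 to 83.13 CPM in BURP-19NE. It was 34.58 to 255.7 CPM in the Ba/Sq tumors with a median of 100.6, and its part was not tested. The Gli1 call was lost when the counts of each line were summed (-3.45, adjusted p of 0.149) and with the line as a random effect in limma-voom (-2.88, adjusted p of 0.27).

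Comparison of BURP-16SR with the Ba/Sq tumors asked the same of the stroma-rich line. Ihh was higher in BURP-16SR, where it averaged 3.62 ± 2.19 CPM (SD, n = 3), than in the Ba/Sq tumors, where it averaged 0.105 ± 0.117 CPM (SD, n = 18), a log2 fold change of 5.06 ± 0.551 with an adjusted p of 5.94e-07. All 3 BURP-16SR tumors lay above all 18 Ba/Sq tumors. Ihh entered the test only through BURP-16SR, in which 3 tumors exceeded the level of the filter and 0 of the Ba/Sq tumors did, so that it had to differ to be tested at all, and its Ba/Sq level rests on at most 6 counts in a tumor. The change was called when the counts of each line were summed (5.05, adjusted p of 0.0125), with the line as a random effect (4.97, adjusted p of 6.42e-05) and with the fibroblast score as a covariate (5.03, adjusted p of 4.12e-06). The epithelial markers were low in BURP-16SR and the fibroblast markers ranged widely there. The summed level of 7 endothelial genes was 243.8 to 356.7 CPM in BURP-16SR and 29.34 to 409.1 CPM in the Ba/Sq tumors with a median of 89.84, and that of 8 smooth muscle and pericyte genes 103.5 to 488.2 CPM beside 34.58 to 255.7 CPM. Apart from the fibroblast covariate, the part of these cell types in the Ihh difference was not tested.

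None of the other 6 members tested was called between BURP-16SR and the Ba/Sq tumors. Smo was closest, with a mean of 57.2 ± 2.76 CPM (SD, n = 3) beside 121.3 ± 55.6 CPM (SD, n = 18), a log2 fold change of -1.01 ± 0.392 and an adjusted p of 0.0642. The groups overlapped through 1 Ba/Sq tumor, BURP-17BaSq replicate 3 at 58.8 CPM, which was below the highest BURP-16SR tumor at 60.2 CPM. Smo was called lower by DESeq2 (-1.02, adjusted p of 0.0291) and when BURP-17BaSq replicate 1, BURP-17BaSq replicate 3 or BURP-24BaSq replicate 2 was left out (adjusted p of 0.0485, 0.0484 and 0.0499). It was not called when the counts of each line were summed (-1.09, adjusted p of 0.407). Nor was it with the line as a random effect in limma-voom (-0.85, adjusted p of 0.302) or with the fibroblast score as a covariate (-0.68, adjusted p of 0.277). The targets of the pathway had log2 fold changes of 0.32 ± 0.259 for Ptch1 and 0.79 ± 0.618 for Gli1, with adjusted p-values of 0.394 and 0.376. Gli2 (-0.63), Gli3 (-0.47) and Sufu (0.19) had adjusted p-values from 0.327 to 0.618. Over the 21028 genes tested, 10.5% were called higher and 8.62% lower, and 11.4% did not overlap.

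Between BURP-16SR and BURP-19NE, Ihh, Ptch1, Gli1 and Smo were called. The ligand Ihh (5.03 ± 0.846, adjusted p of 0.0063), the receptor Ptch1 (1.06 ± 0.235, adjusted p of 0.0158) and Gli1 (4.18 ± 0.599, adjusted p of 0.00369) were higher in BURP-16SR, and Smo (-1.27 ± 0.152, adjusted p of 0.0022) was lower, each as a log2 fold change with its SE. Ihh and Gli1 passed the filter only through BURP-16SR, with 3 tumors above its level there and 0 in BURP-19NE, so that they had to differ to be tested. The lowest BURP-16SR value of Gli1, 0.979 CPM, was above the highest BURP-19NE value of 0.168 CPM. For Ptch1 the nearest values were 33.7 and 26.5 CPM, and its call was lost without BURP-16SR replicate 3 (0.83, adjusted p of 0.0263), without BURP-19NE replicate 1 (0.92, adjusted p of 0.0671) or without BURP-19NE replicate 2 (0.98, adjusted p of 0.0702), and its change was no longer above 1 without a filter (1.0, adjusted p of 0.0199) or with all 24 tumors in 1 fit (0.97, adjusted p of 0.0127). Gli2 (0.79), Gli3 (-0.40) and Sufu (0.39) were not called, with adjusted p-values from 0.134 to 0.589. Among the 17556 genes tested, 14.8% were called higher and 8.86% lower in BURP-16SR. No overlap between the groups was seen in 5 of the 7 members and in 51.7% of all genes, which with 3 tumors against 3 tells little.

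BURP-24BaSq was compared with BURP-16SR because the study used this pair of lines to compare growth under cisplatin. Ihh was lower in BURP-24BaSq, where 1, 1 and 2 counts were found, by a log2 fold change of -5.73 ± 0.713 with an adjusted p of 0.00132, and no other member was called. Here too Ihh passed the filter only through the BURP-16SR tumors and had to differ to be tested. Sufu had an adjusted p of 0.0125 but a log2 fold change of -0.91 ± 0.201, under the size set for a call. The others had adjusted p-values from 0.166 to 0.555. In this comparison 13.2% of 18283 genes were called higher and 15.8% lower. It shares the BURP-16SR tumors with the preceding comparisons and is not independent of them.

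**Figure D2:**
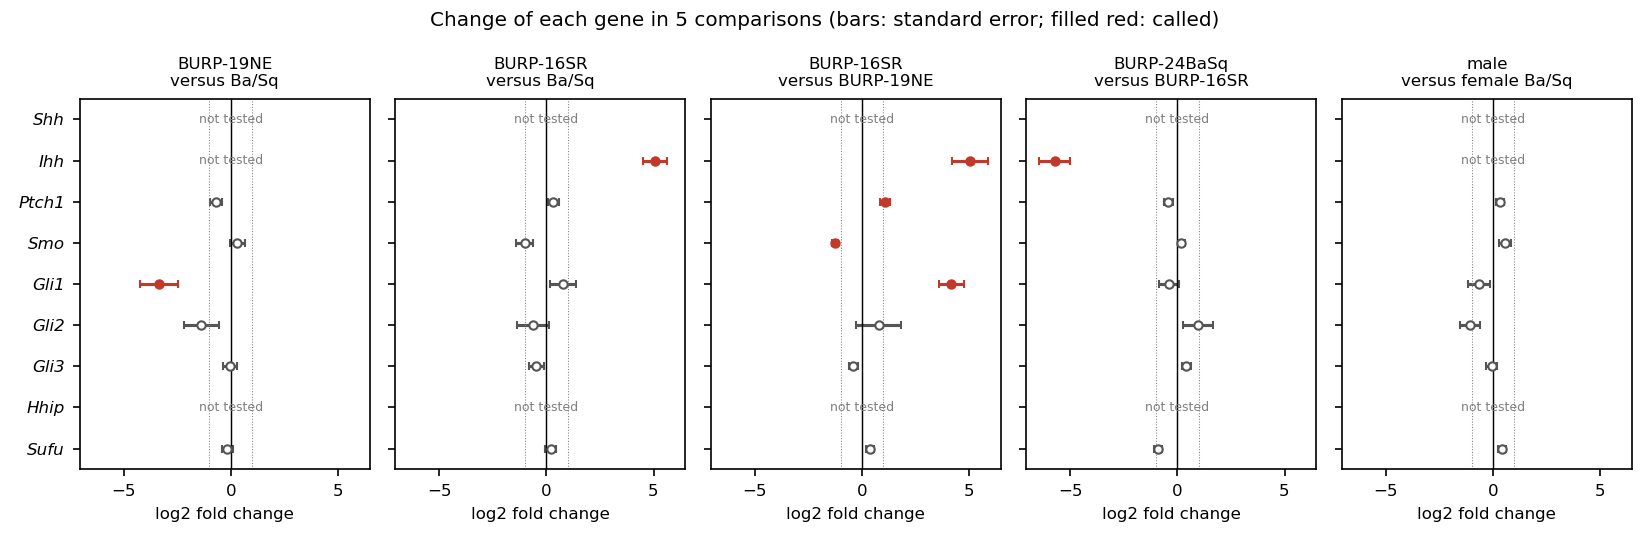
Log2 fold change of each gene in 5 comparisons, with its standard error as a bar. Filled red points passed an adjusted p under 0.05 and a log2 fold change beyond the dotted lines at 1 and -1; open points did not, and genes too low to test are marked. Ihh is called wherever BURP-16SR takes part, Gli1 wherever BURP-19NE takes part, and no gene between male and female Ba/Sq tumors.

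Between the 9 male and the 9 female Ba/Sq tumors, from 3 lines each, no member of the 6 tested was called by edgeR's quasi-likelihood test. Gli2 had the largest difference, with a mean of 4.56 CPM in male and 9.63 CPM in female tumors and a log2 fold change of -1.07 ± 0.463, and an adjusted p of 0.172. Smo (0.57), Gli2 and Sufu (0.43) had unadjusted p-values of 0.0484, 0.0328 and 0.0308. DESeq2 also called 0 members. Of 17922 genes tested, 1.09% were called higher and 1.22% lower in male tumors. With 3 lines for each sex, sex and line cannot be fully told apart.

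Among the Ba/Sq lines, BURP-12BaSq was the line with the most members called against the other 5, which were 2 of the 6 tested. Gli1 was lower there, at 0.25 CPM against 1.39 CPM, with a log2 fold change of -2.42 ± 0.628 and an adjusted p of 0.0266, having passed the filter through the other lines alone, with 0 BURP-12BaSq tumors above its level. Gli2 was also lower, at 1.46 CPM against 8.23 CPM, with a log2 fold change of -2.49 ± 0.62 and an adjusted p of 0.0217. Both calls were lost when any of the 3 BURP-12BaSq tumors was left out, with adjusted p-values up to 0.156 for Gli1 and 0.155 for Gli2, while the changes ranged from -2.81 to -2.20 and from -2.88 to -2.21. Ptch1 (0.76 ± 0.203, adjusted p of 0.0298) and Sufu (0.74 ± 0.203, adjusted p of 0.0335) were on the opposite side, both under the size set for a call, and in both the 3 BURP-12BaSq tumors lay above all 15 others. Calls made up 4.59% of the 20523 genes tested, and 7.07% did not overlap. BURP-12BaSq also had the lowest mean of summed fibroblast markers, with 274, 615.3 and 294.1 CPM in its tumors. Its summed smooth muscle and pericyte markers, 40.95 to 46.72 CPM, had the lowest mean of all lines too. The part of either in these differences was not tested.

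BURP-18BaSq differed from the other Ba/Sq lines in Smo, with 218.2 CPM against 101.9 CPM, a log2 fold change of 1.11 ± 0.262 and an adjusted p of 0.00786. All 3 of its tumors were above the other 15. The call was lost without BURP-18BaSq replicate 1, the highest tumor, when the change was 1.0 with an adjusted p of 0.0868. In this line 10.1% of 20523 genes were called and 8.06% did not overlap. No member was called by edgeR in BURP-17BaSq, BURP-21BaSq, BURP-24BaSq or BURP-25BaSq, where 1.07%, 0.0195%, 1.65% and 0.273% of all genes were. The smallest adjusted p among these was that of Sufu in BURP-24BaSq, 0.051 with a log2 fold change of -0.85 ± 0.227 and an unadjusted p of 0.00136, with all 3 tumors below the other 15. The share of all genes without overlap was not computed for this line, so that such a separation may be ordinary.

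The pathway is usually paracrine, with ligand from epithelium and target genes in stroma, and 9 relations were computed over the 6 Ba/Sq lines, of Shh, Ihh and a fibroblast score with Ptch1, Gli1 and Hhip. None passed: the adjusted p was at least 0.594 for Pearson's r and at least 0.15 for Spearman's rho, the latter in Ihh with Ptch1 (rho 0.943, exact permutation p of 0.0167 and r 0.421, p of 0.336). The 7 relations with Shh, Ihh or Hhip are not described further, since these genes were near the floor in the Ba/Sq tumors, Ihh having at most 6 counts. The fibroblast score, the mean log2 CPM of the 12 fibroblast genes, had a Pearson r of -0.48 with Ptch1 (exact permutation p of 0.333, adjusted over the 9 relations 0.594) and a Spearman rho of 0.0857 (p of 0.919). With Gli1, r was 0.35 (exact permutation p of 0.511, adjusted 0.594) and rho -0.143 (p of 0.803), all tests two-sided over 6 lines. Both depended on BURP-12BaSq: without that line r was 0.71 for Ptch1 and -0.96 for Gli1, with adjusted p-values of 0.35 and 0.075. Without BURP-12BaSq and BURP-17BaSq, the lines farthest from the median score, r was 0.84 for Ptch1 and -0.90 for Gli1 over 4 lines.

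Within lines both relations kept the sign that Pearson's r had over all Ba/Sq lines. As deviations of the 18 Ba/Sq tumors from their line means, the fibroblast score had an r of 0.56 with Gli1 and of -0.30 with Ptch1, given as descriptions, since tumors of a line share their donor and every gene shares its library. In BURP-17BaSq the tumor with the most fibroblast markers, at 11470 CPM, had 2.18 CPM of Gli1, and the tumor with the fewest, at 407.4 CPM, had 0.252 CPM. That BURP-17BaSq tumor, replicate 1, also had the highest summed endothelial markers of the Ba/Sq tumors at 409.1 CPM and the highest leukocyte markers at 278.9 CPM, whose part was not tested. BURP-24BaSq ran the other way, its tumor with the most fibroblast markers, at 2171 CPM, having the least Gli1 at 1.01 CPM, beside 1.73 and 1.86 CPM. In BURP-16SR, replicate 3 with 845.9 CPM of fibroblast markers had 0.979 CPM of Gli1, 0.769 CPM of Gli2 and 53.2 CPM of Ptch1, while replicates 1 and 2 with 8660 and 22840 CPM had more Gli1, more Gli2 and less Ptch1. Over all 18 Ba/Sq tumors, Ptch1 and Gli1 had an r of -0.70 and over all 24 an r of -0.09, although both are regarded as targets. These are descriptions too, for the same reason. The BURP-12BaSq tumors joined the highest Ptch1 of the Ba/Sq tumors with Gli1 of at most 0.37 CPM. BURP-25BaSq replicate 2, the library with the highest floor, had the lowest Ptch1 at 12.5 CPM and the highest Gli1 at 2.69 CPM, from 6 counts. The r without these tumors was not computed.

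**Figure D3:**
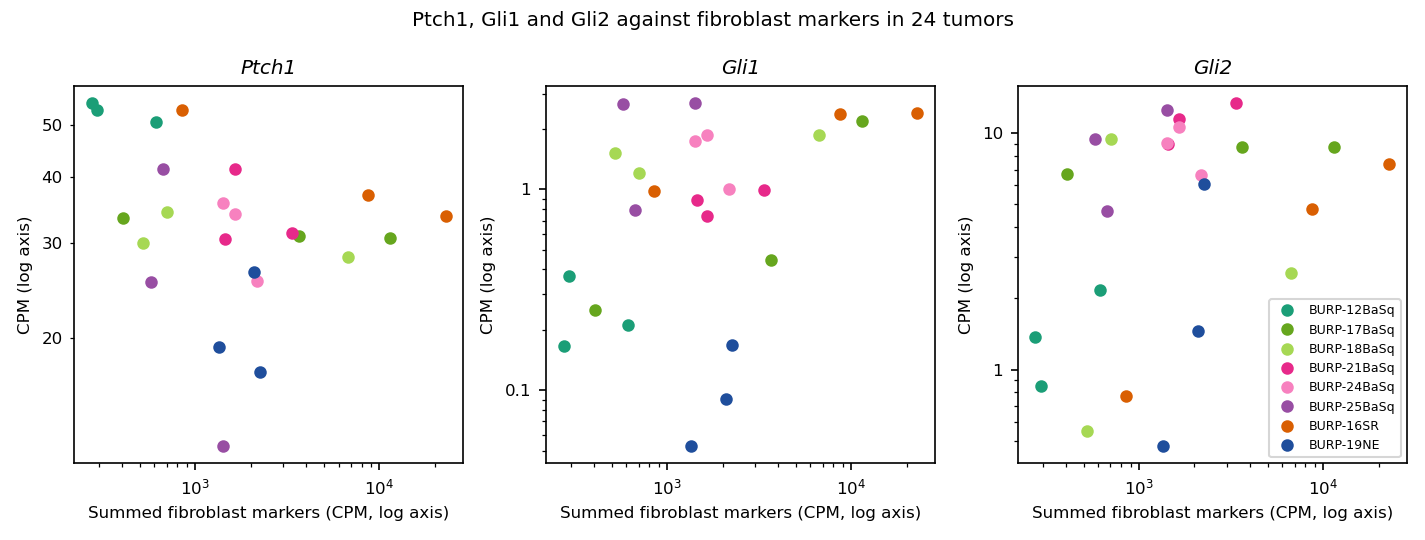
Level in CPM of Ptch1, Gli1 and Gli2 against the summed CPM of 12 fibroblast genes in the 24 tumors, both axes logarithmic, with colours for the 8 lines. The BURP-12BaSq tumors, at 274 to 615.3 CPM of fibroblast markers, join high Ptch1 with low Gli1 and Gli2, and the BURP-19NE tumors have Gli1 of at most 0.168 CPM at 1344 to 2251 CPM of fibroblast markers.

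The other 45 pathway genes were grouped in 5 lists. Of the 43 tested in BURP-19NE, 9 were higher than in the Ba/Sq tumors, a larger share than the 9.33% of all genes. Another 6 were lower, a share near the 15% of all genes. The median log2 fold change was 0.25 beside -0.14 over all genes. In 17 of the 43 the tumors did not overlap, a larger share than the 18% of all genes. The differences in share were not tested. When the counts of each line were summed, 7 were called, namely Disp1, Cdon, Stk36, Foxf1, Foxf2, Foxl1 and Wnt4. Among co-receptors, which help Patched to bind ligand, Cdon and Boc went opposite ways: Cdon was 137.7 ± 40.4 CPM in BURP-19NE against 19.8 ± 7.02 CPM (log2 fold change 2.82, adjusted p of 4.26e-08), and Boc was 0.399 ± 0.254 CPM against 8.10 ± 5.19 CPM (-4.28, adjusted p of 0.000674; SD, n = 3 and 18). Disp1, which releases the ligand from the cell that makes it, was higher at 45.2 CPM against 9.90 CPM (2.21, adjusted p of 2.75e-06).

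Among genes of Gli processing, Stk36 (2.39, adjusted p of 1.28e-05), a kinase related to fly Fused, and Btrc (1.42, adjusted p of 0.00119), a subunit of the ligase that directs Gli processing, were higher in BURP-19NE. The only Smo regulator called was Efcab7 (1.06, adjusted p of 0.032), a protein of the base of the cilium, whose call was lost when any 1 BURP-19NE tumor was left out (0.94 to 1.06, adjusted p of 0.0971 to 0.139), when any 1 BURP-12BaSq tumor was, and without BURP-18BaSq replicate 1 or 3, in these as the change fell to between 0.97 and 1.0. The 17 targets and stromal factors went both ways. The forkhead genes Foxf1 (22.2 CPM against 0.611 CPM, 5.15, adjusted p of 7.32e-09) and Foxl1 (5.06 CPM against 0.132 CPM, 5.29, adjusted p of 5.08e-06), known targets of Hedgehog in gut mesenchyme, were higher in BURP-19NE, in which Gli1 was lowest, and in both all 3 tumors lay above all 18 Ba/Sq tumors. Foxl1 passed the filter only through BURP-19NE, with 3 tumors above its level there and 1 among the Ba/Sq tumors, so that it had to be high in BURP-19NE to be tested. Foxf2, their close relative, was lower, at 0.316 CPM against 10.8 CPM (-5.02, adjusted p of 1.92e-05). The BURP-19NE means of Foxf2 and of Boc lay under the level of the filter, so that both were tested through the Ba/Sq tumors, where they were high. The secreted factors Wnt5a (2.15, adjusted p of 0.00238) and Bmp4 (2.64, adjusted p of 0.0307) were higher, the call of Bmp4 being lost without any 1 of the BURP-19NE tumors (adjusted p of 0.0677 to 0.153), and Wnt4 (-4.78, adjusted p of 1.98e-06) and the Wnt inhibitor Sfrp1 (-3.59, adjusted p of 0.00498) were lower. Osr2 (-3.19, adjusted p of 0.00369), a zinc finger factor, and Ccnd2 (-1.16, adjusted p of 0.00121), a cyclin of the G1 phase, were lower as well.

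In BURP-16SR 4 of the 43 other genes tested were higher and 2 lower, with a median log2 fold change of 0.17 beside -0.03 over all genes. Beside the 10.5% higher and 8.62% lower of all genes, neither count stood above the background. Wnt2, a ligand of mesenchymal cells, rose most, from 0.657 ± 1.87 CPM in the Ba/Sq tumors to 33.3 ± 35.2 CPM in BURP-16SR (5.61, adjusted p of 0.00024). It passed the filter only through BURP-16SR, with 3 tumors above its level there and 2 among the Ba/Sq tumors, and the change was 4.22 without BURP-16SR replicate 3 and 7.23 without BURP-17BaSq replicate 1. Disp1 was higher here too (1.32, adjusted p of 0.00231), as were Mgrn1, a ubiquitin ligase that lowers Smo at the cilium (1.40, adjusted p of 1.99e-06), and Ccnd1, a cyclin of the G1 phase (1.26, adjusted p of 0.047). Wnt4 (-5.59, adjusted p of 1.23e-06) and Osr2 (-2.64, adjusted p of 0.0194) were lower, as in BURP-19NE, both comparisons having the same Ba/Sq tumors as controls. Ccnd1 was not called when any 1 BURP-16SR tumor was left out (adjusted p of 0.119 to 0.156) or most single Ba/Sq tumors, Disp1 without BURP-16SR replicate 3 (1.02, adjusted p of 0.0631), and Osr2 without BURP-16SR replicate 2 or 3 (adjusted p of 0.077 and 0.0956). Ccnd1 and Osr2 were also not called with the fibroblast score as a covariate (1.06 and -2.11, adjusted p of 0.152 and 0.0858) or with the line as a random effect (adjusted p of 0.111 and 0.24), nor was Ccnd1 without a filter (1.16, adjusted p of 0.0893). With the counts of each line summed, Wnt4 alone was called.

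**Figure D4:**
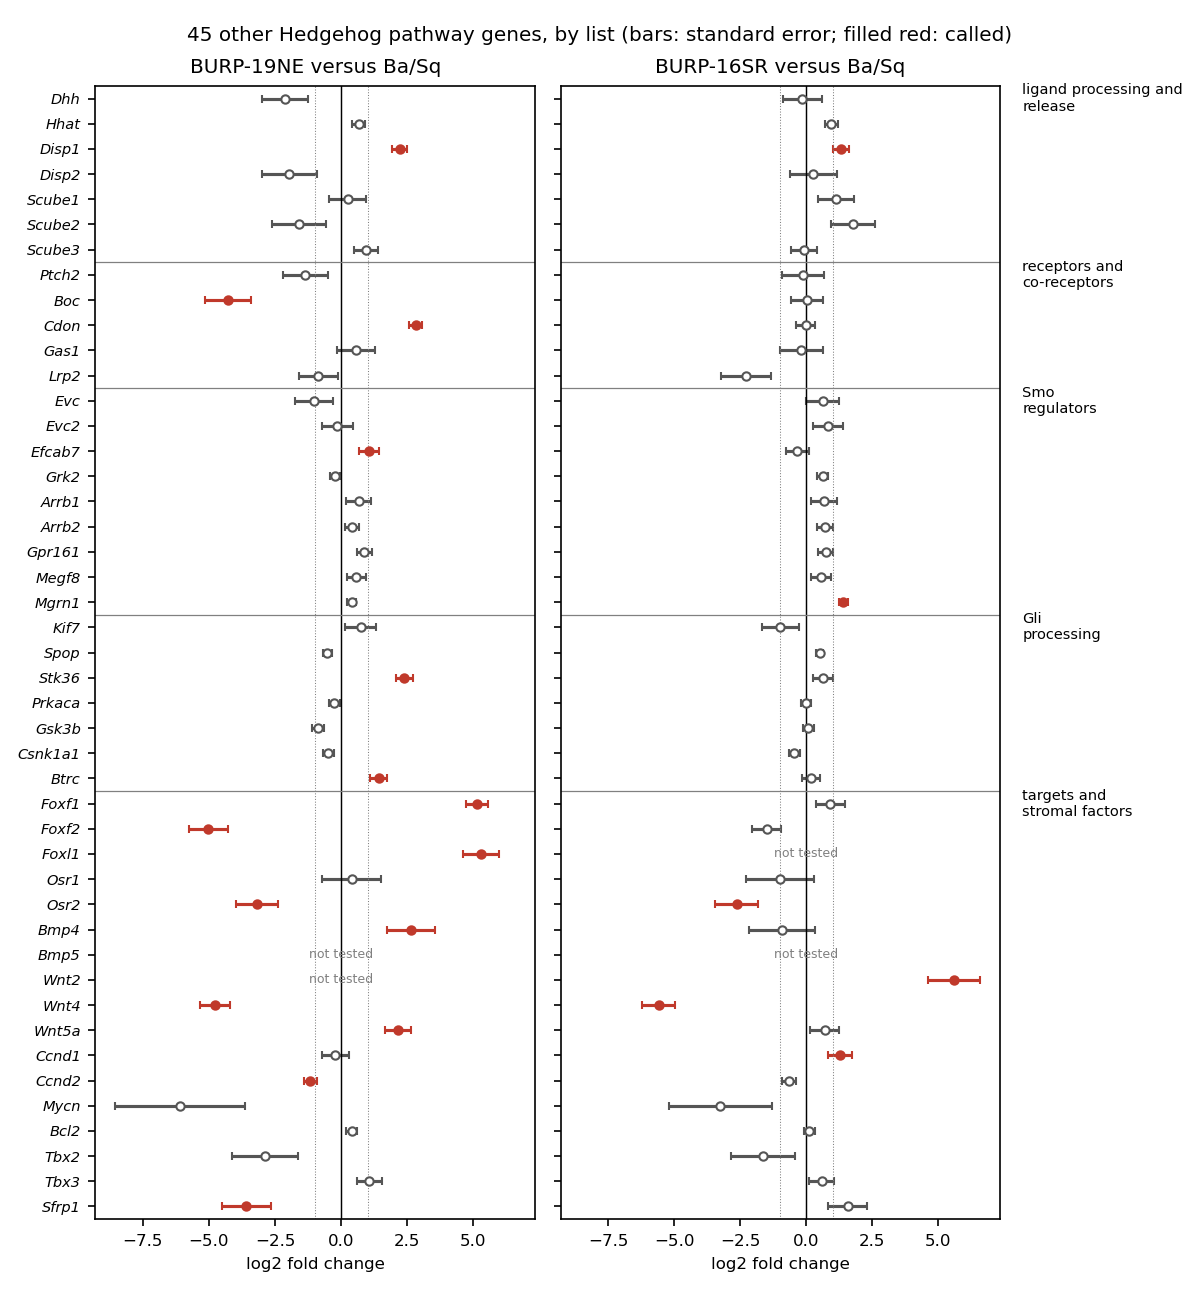
Log2 fold change of the 45 other pathway genes in BURP-19NE (left) and BURP-16SR (right) against the 18 Ba/Sq tumors, with its standard error as a bar and lines between the 5 lists. Filled red points were called, 15 on the left and 6 on the right, and genes too low to test are marked.

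Between male and female Ba/Sq tumors 1 of 38 other genes tested was called, a share near the 1.09% higher and 1.22% lower of all genes. Boc, the co-receptor, was lower in male tumors, where it averaged 4.004 ± 2.41 CPM and in female tumors 12.2 ± 3.69 CPM (SD, n = 9 each), a log2 fold change of -1.59 ± 0.302 and an adjusted p of 0.00848. The line means were 4.39, 5.33 and 2.30 CPM in the male lines, in order of their numbers, and 14.8, 12.8 and 8.96 CPM in the female lines, so that each male line was below each female line, while single tumors overlapped, the highest male tumor having 9.69 CPM and the lowest female tumor 7.76 CPM. The call was lost when the counts of each line were summed (-1.51, adjusted p of 0.691) and with the line as a random effect (-1.56, adjusted p of 0.302).

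The genes whose log2 CPM ran most alike over the 24 tumors were sought among the 21383 genes that passed the filter. For Ihh they were Rasgrf1 (r = 0.93), Krtap17-1 (0.922) and Vmn2r79 (0.92). For Gli1 they were Sulf1 (0.901), which encodes a secreted sulfatase acting on heparan sulfate, Ak1 (0.881) and Fam43a (0.879). For Ptch1 they were Zscan22 (0.87), Fem1a (0.853) and Gm10036 (0.85). These coefficients are descriptions over 8 lines of 3 tumors, and for Ihh they rest on the contrast of BURP-16SR with the other lines. Shh was too low for this search.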

How the data were processed

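Total RNA of 24 tumors, depleted of ribosomal RNA, was sequenced by the authors, who aligned reads with STAR 2.6.0a to GRCm38 and deposited RSEM 1.3.1 expected counts per gene, without normalization, per the submitters' processing notes. Of these values 12.5% were not whole, and all were rounded. GENCODE M21 (GRCm38) named 99.8% of 53465 identifiers and gave positions and exon lengths. Line came from the sample labels, subtype and sex from the paper. edgeR 4.0.16 in R 4.3.3 (filterByExpr, TMM, glmQLFit and glmQLFTest, not robust) was fitted over all genes of the tumors compared. Genes were called where the p-value adjusted by Benjamini and Hochberg was under 0.05 with a log2 fold change beyond 1 or -1, and the F test over 8 lines the p alone. DESeq2 1.42.0 and limma 3.58.1 served as alternatives. The fit was also run on simulated counts of independent tumors without a line effect, which says nothing of tumors that share a donor. Named were the 9 members, other pathway genes called in BURP-19NE, BURP-16SR or by sex, and the 3 genes most like Ihh, Gli1 and Ptch1; the rule also held Shh, which was too low. Members and lists were chosen with earlier results of these data known.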

Additional observations from a re-analysis of the deposited data

Results flagged for a closer look

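Each member was examined in the 9 male and the 9 female Ba/Sq tumors for a tumor far from the other 8, in 18 groups of values. The cutoff of Dixon's test picks about 1 in 20 groups of normally distributed values, a share that does not hold for counts near 0. In 5 of the groups the gap to the nearest tumor was too large a share of the range by this test, each in a gene at or near the floor. Shh was 0.115 CPM in BURP-17BaSq replicate 1 and 0.089 CPM in BURP-25BaSq replicate 1, from 3 and 2 counts. The other tumors of each group had no count, so that any count in a single tumor would have been flagged. Ihh was 0.459 CPM in BURP-21BaSq replicate 1, from 5 counts, the next female tumor having 0.232 CPM from 6 counts in a deeper library. Hhip was 0.542 CPM in BURP-12BaSq replicate 1, from 13 counts, the next male tumor having 0.153 CPM, and 1.79 CPM in BURP-25BaSq replicate 2, from 4 counts in the library with the highest floor, the next female tumor having 0.178 CPM.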

How the results depend on the processing

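Requiring at least 10 counts in every tumor removed Ihh, Gli1 and Gli2 from most tests. The members called then numbered 0 in BURP-19NE, BURP-16SR and BURP-12BaSq and in BURP-24BaSq against BURP-16SR. They numbered 2 in BURP-16SR against BURP-19NE and 3 over the 8 lines. Under this filter 6 other pathway genes were called in BURP-19NE and 0 by sex. In BURP-19NE 0 members were called with counts summed per line or the line as a random effect, beside 7 and 9 other pathway genes. In BURP-16SR DESeq2 called 2 members, Smo in addition (-1.02); other pathway genes numbered 10 with all 24 tumors in 1 fit and 1 with counts summed per line. By sex, other pathway genes numbered 2 with DESeq2 size factors, 2 without a filter, 4 with DESeq2, 5 with all 24 tumors in 1 fit, 0 with counts summed per line, 0 with the line as a random effect and 2 without BURP-25BaSq replicates 2 and 3. With single tumors left out, members called ranged from 1 to 2 in BURP-16SR, 0 to 2 in BURP-12BaSq and 0 to 1 in BURP-18BaSq. The range was 3 to 4 in BURP-16SR against BURP-19NE and 5 to 7 in the F test over the 8 lines. Other pathway genes called by sex ranged from 1 to 4. Gli3 changed sign, near 0, without BURP-19NE replicate 3 (0.05, the range being -0.12 to 0.05) and, by sex, without BURP-18BaSq replicate 1 or BURP-21BaSq replicate 3 (0.06 in both, the range being -0.15 to 0.06). The r of the fibroblast score with Ptch1 was 0.09 as a Spearman rho, -0.82 to 0.71 with a line left out and 0.84 without the 2 lines farthest from the median; with Gli1 it was -0.14, -0.96 to 0.63 and -0.90. The cause of these changes was not tested, apart from the fewer genes tested under the stricter filter. Of 1474 recomputed fold changes, 73 were no longer called, 4 were newly called and 3 changed sign. Leaving out BURP-25BaSq replicates 2 and 3 together, either of them where another single Ba/Sq line was compared with the rest, and the 2 farthest lines was chosen after seeing the data. No paired analysis was possible because the labels give no replicate number: they hold codes such as M3, M30 or P4, some shared by lines, whose meaning they do not state. The paper uses P with a number for the subcutaneous passage, so codes such as P4 may name passages. Depth limits the low genes: Shh and Hhip could not be compared.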
